A study of Mus musculus with 12 samples.

Results

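The genes described here are 35 genes of cell division, of which 15 act in S phase, when DNA is copied, and 20 act in mitosis, when the copied chromosomes are separated. They were picked by symbol from the 55573 genes of the count table, and each symbol named exactly 1 row. The RNA came from cultured adipocytes that had been grown out of the SVF (stromal vascular fraction) of subcutaneous fat of C57BL/6 mice. This fraction holds preadipocytes, fibroblasts, immune cells and vessel cells, without the floating fat cells. The mice carried CRISPR-Cas9 knock-in alleles of PPARγ, the nuclear receptor that drives adipocyte formation, in the whole body, and the controls were wild-type littermates. Each of the 3 genotypes had 4 libraries. WT cells carried wild-type PPARγ, TA cells were homozygous for T166A, where alanine cannot be phosphorylated, and TD cells were homozygous for T166D, where aspartate mimics the phosphorylated residue. Cells of every genotype were induced at confluence for 4 days with 850 nM insulin, 1 nM triiodothyronine, 0.5 mM IBMX, 125 nM indomethacin and dexamethasone, whose unit differs between the sample labels and the methods. They were then kept in insulin and triiodothyronine and harvested on day 8. The labels number the libraries of a genotype but do not say whether each came from its own mouse, so p-values measure the spread between these libraries, which may be technical.

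Cells enter S phase when cyclin E and its kinase release E2F transcription factors from the RB protein, and E2F then switches on the replication genes. The MCM helicase is loaded on DNA before S phase and opens it at replication forks, while PCNA clamps the polymerases to the strand and ribonucleotide reductase, thymidylate synthase and thymidine kinase supply nucleotides. Mitotic genes follow later in the cycle, when cyclins A and B, CDK1, the Aurora and Polo kinases and the spindle checkpoint guide the chromosomes apart. Preadipocytes stop dividing at confluence, may divide again after the hormonal mix is added, and leave the cycle as they become adipocytes. A mature adipocyte culture therefore contains few dividing cells, and other cells of the SVF can divide beside them.

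Libraries held between 16553324 and 20324286 counts, and the 18 pairs of replicates differed by more than sampling noise (chi-square per degree of freedom from 4.95 to 38.7). The defining adipocyte markers were high in every library, but lower in TD, where the summed level of 10 markers ran from 11270 to 13572 CPM (counts per 1000000 of the scaled library size), against 16958 to 20095 in WT and 16993 to 23065 in TA. Markers of other cells of the SVF were present in every library. The 12 fibroblast and preadipocyte markers summed to 10210 to 13558 CPM in WT, 11491 to 20603 in TA and 17741 to 25925 in TD, with Dlk1 at 0 counts in 11 libraries. The 9 endothelial markers summed to 42.4 to 81.5, 64.8 to 113 and 129.0 to 167 CPM, and the 12 macrophage markers to 291 to 862, 149 to 633 and 692 to 933 CPM. The 12 skeletal muscle markers summed to 5.02 to 9.60, 13.3 to 43.0 and 12.7 to 155 CPM, with Pax7 at 0 in every library. Of these lists 11 fibroblast and preadipocyte, 9 endothelial, 8 muscle and 12 macrophage markers had enough counts to be tested. Against WT, edgeR called 9, 8, 8 and 2 of them higher in TD, where 15.1% of all genes were called higher. In TA it called 7, 4, 4 and 0 of them higher, where 6.72% of all genes were. In WT3, 10 of the 12 muscle markers were at 0, so most tested ones passed the count filter only through mutant libraries. Their calls therefore cannot be weighed against the share of all genes. The macrophage share in TD, 16.7%, was near that of all genes. Pparg itself ran from 331 to 373 CPM in WT, 322 to 428 CPM in TA and 210.1 to 258 CPM in TD, and gene counts cannot show the changed codon. In RNA of a whole culture, fewer cells of a type and less RNA per cell cannot be told apart. The part of these cells in the results below was not tested.

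The cell division genes were expressed at a low level. In each library all 35 together took 271 to 407 counts per 1000000 of the raw total, whereas CPM elsewhere is per library size scaled by TMM (trimmed mean of M values). Of these genes 34 passed the filter on low counts (about 10 counts in at least 4 libraries). The exception was Kif11, a motor that pushes the spindle poles apart, with 1 to 13 counts per library and sums of 11 in WT, 20 in TA and 35 in TD. Per kilobase of exon, the mean level over the 12 libraries was highest for Pcna, with 17.6 CPM per kb, followed by Mcm7 with 7.95, Rrm2 with 5.96 and Mcm4 with 5.03. At the low end were Cdc6, a loader of the MCM helicase, with 0.261 CPM per kb and the kinetochore protein gene Cenpf with 0.291. For mitosis genes the highest was Cdc20 with 2.71, so that the S-phase genes held the upper end of the scale.

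In TD, genes of both phases rose against WT, and 1 gene fell. EdgeR's quasi-likelihood test called 9 of the 34 tested genes higher at an adjusted p under 0.05, where 15.1% of all 15117 genes tested were called higher, and 1 lower, where 14.2% of all genes were called lower. The 9 genes are 26.5% of those tested and the 1 gene is 2.94%. Of the 15 S-phase genes Mcm3, Mcm4, Mcm6 and Tk1 rose and Rrm2 fell, and of the 19 mitosis genes Ccna2, Cdc20, Cenpf, Tpx2 and Top2a rose and none fell. The median log2 fold change was 0.23 for the S-phase genes and 0.45 for the mitosis genes, beside 0.01 for all genes. In 11 of the 34 genes every TD library was above every WT library, as in 15.8% of all genes, and in 2 every TD library was below, as in 16.4% of all genes. Without the TD3 and TD4 libraries, where muscle markers were highest (a choice made after the data were seen), the 2 genes Ccna2 and Cdc20 remained called and no S-phase gene did, and the calls over all genes went from 4418 to 1516.

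In TA against WT no cell division gene was called higher, where 6.72% of all genes were, and none lower, where 4.41% were. At an unadjusted p under 0.05 edgeR had 1 gene higher, Cdc20, and 1 lower, Rrm2, where 2108 and 1696 of all 15117 genes were. DESeq2 called 1 S-phase gene lower and none higher, and 2060 genes of all in either direction. Without TA2, edgeR also called 1 S-phase gene lower. The medians were -0.04 for the S-phase genes and -0.01 for the mitosis genes, beside -0.01 for all genes. In 1 gene every TA library was above every WT library (7.71% of all genes) and in 2 every TA library was below (5.85% of all genes). In TD against TA, which shares its TD libraries with the first comparison, Mcm3, Mcm4 and Ccna2 were called higher, 8.82% of the members tested where 7.33% of all genes were called higher, and none was called lower, where 9.37% were. At an unadjusted p under 0.05 edgeR had 13 genes higher and 1 lower, where 2378 and 2338 of all 15117 genes were. DESeq2 called 3 S-phase and 4 mitosis genes higher and none lower, and 2925 genes of all in either direction. In 4 genes every TD library was above every TA library (9.32% of all genes) and in 1 every TD library was below (10.6% of all genes). The medians in this comparison were 0.13 for the S-phase genes and 0.44 for the mitosis genes, beside 0.02 for all genes. Each of the 19 mitosis genes had a positive log2 fold change, from 0.09 to 0.71, of which 1 passed the test. Of all 15117 genes 8071 had a positive one. The 19 genes share their libraries, so they are not 19 separate results.

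**Figure D1:**
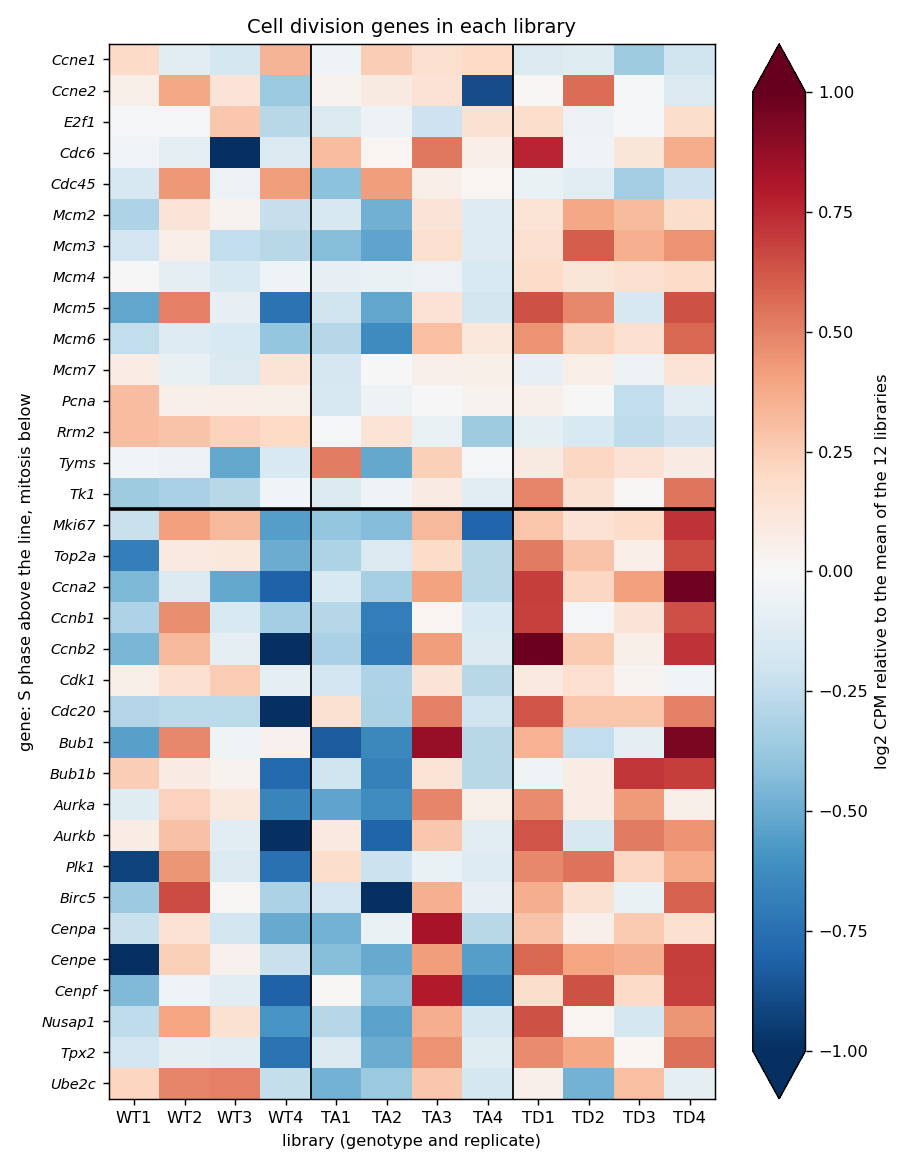
Level of the 34 tested cell division genes (rows, S phase above the line and mitosis below) in each of the 12 libraries (columns), as log2 CPM minus the mean of the 12 libraries, with the colour scale ending at -1 and 1. Most mitosis genes were high in the TD libraries and also in WT2 and TA3, whereas the S-phase genes Mcm7 and Mcm4 varied little.

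**Figure D2:**
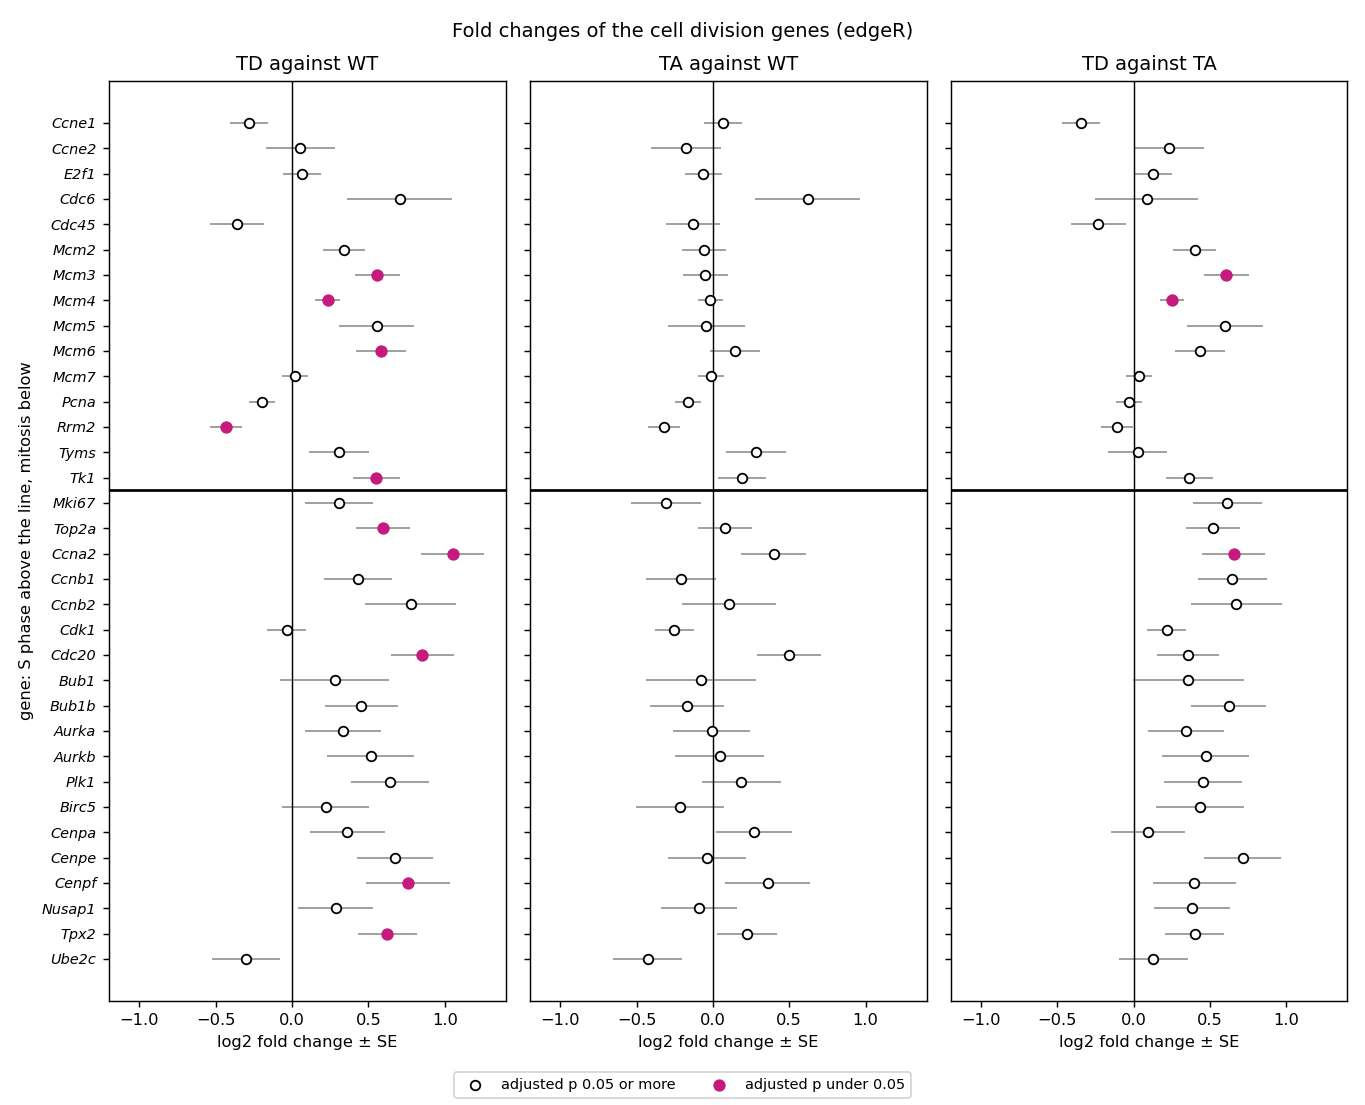
Log2 fold change of the 34 genes in each comparison, fitted by edgeR, with the standard error as a bar and genes with an adjusted p under 0.05 filled. Filled points lie to the right in TD against WT except for Rrm2, there are none in TA against WT, and 3 remain in TD against TA.

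None of the 3 genes of S-phase entry was called in any comparison. Ccne1, which encodes cyclin E1, was at 14.6, 11.9, 11.3 and 16.2 CPM in WT, 12.4, 15.2, 14.3 and 14.7 CPM in TA and 11.6, 11.8, 10.0 and 11.1 CPM in TD. Each TD library was below each TA library, with a log2 fold change of -0.35 ± 0.125 (SE) and an adjusted p of 0.0675, which missed the threshold of 0.05. Ccne2, for cyclin E2, averaged 5.53 ± 1.15 (SD, n = 4) CPM in WT, 4.90 ± 1.39 in TA and 5.74 ± 1.33 in TD. Its exons overlap Ints8 on the other strand for 17.4% of their length, and as the strand setting of the counting is not given in the sources used here, its counts are uncertain. E2f1, the transcription factor that activates replication genes, averaged 15.2 ± 2.35 CPM in WT, 14.5 ± 1.65 in TA and 15.9 ± 1.36 in TD, and its log2 fold changes lay between -0.06 and 0.13.

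Of the 6 MCM genes, whose products form the ring of the replicative helicase, 3 rose in TD against WT and 2 of these also against TA. Mcm3 was at 10.4, 12.4, 10.0 and 9.81 CPM in WT, 8.83, 8.24, 13.2 and 10.8 CPM in TA and 13.3, 18.1, 15.2 and 16.2 CPM in TD. Every TD library was above every WT and every TA library, the closest being TA3. Mcm3 rose by 0.56 ± 0.147 (SE) against WT (edgeR adjusted p = 0.00956) and by 0.61 ± 0.148 against TA (adjusted p = 0.0112) on the log2 scale. Mcm6 was at 12, 13.1, 12.8 and 10.9 CPM in WT, 11.7, 9.22, 17.6 and 15.4 CPM in TA and 19.4, 16.6, 16.0 and 21.2 CPM in TD. TD and WT did not overlap, but TA was split, with TA3 inside the TD range. The rise against WT was 0.58 ± 0.163 (adjusted p = 0.0133) and lost the threshold without TD4 (0.50, adjusted p = 0.0515), and the difference from TA was 0.44 ± 0.163 (adjusted p = 0.0760). Mcm4 was at 18.1, 16.8, 16.2 and 17.5 CPM in WT, 17.0, 17.2, 17.3 and 16.2 CPM in TA and 20.4, 19.6, 20.1 and 20.4 CPM in TD. Its libraries were tight, and the TD libraries stood above all others. The small rise, 0.23 ± 0.0804 against WT (adjusted p = 0.0389) and 0.25 ± 0.0808 against TA (adjusted p = 0.0436), was near the threshold. The call against WT was lost without WT2, WT3, WT4 or any TD library (adjusted p from 0.0611 to 0.0916), and that against TA without WT2, WT4, TA1, TA2, TA4 or any TD library (adjusted p from 0.0524 to 0.106). DESeq2 also did not call Mcm4 against WT.

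The other MCM genes were not called. Mcm2 averaged 9.54 ± 1.4 CPM in WT, 9.16 ± 1.56 in TA and 12.1 ± 0.970 in TD (adjusted p = 0.0787 against WT and 0.0621 against TA by edgeR), with each TD library above each WT and each TA library. Mcm5 averaged 4.84 ± 1.93, 4.71 ± 0.883 and 7.14 ± 1.65 CPM (adjusted p = 0.103 against WT by edgeR). Mcm7 averaged nearly the same in the 3 genotypes, with 35.2 ± 3.12 CPM in WT, 34.8 ± 2.48 in TA and 35.6 ± 2.49 in TD, and its exons overlap Ap4m1 and Cops6 on the other strand for 7.25% and 1.45% of their length. The factors that load and start the helicase were not called either. Cdc6 was at 0.984 ± 0.426 CPM in WT, 1.51 ± 0.252 in TA and 1.61 ± 0.404 in TD, from 7 to 38 counts per library, and each TA library was above each WT library. Cdc45, an essential partner of the moving helicase, was at 9.09 ± 1.94, 8.31 ± 1.91 and 7.08 ± 0.615 CPM, with a log2 fold change of -0.36 ± 0.178 in TD against WT (adjusted p = 0.142). Ufd1 overlaps it on the other strand for 5.96% of its exon length and had the higher counts.

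The promoters of Mcm3 and Mcm6, which rose, and of Mcm7, which did not, are shown as the 250 bases before a start site of RefSeq (build GRCm38.p6), 5′ to 3′ on the strand of the gene. Capitals mark the letters CCAAT (bound by the factor NF-Y), the E2F letters TTTCCCGC, TTTCGCGC, TTTGCCGC and TTTGGCGC, and the CHR (cell cycle genes homology region) letters TTTGAA and TTCGAA, each read on both strands. Mcm3 and Mcm6 were chosen after their values were seen, and Mcm7 because it has one of the 2 highest levels among the S-phase genes. The 3 windows lie at chr1:20820313-20820562, chr1:128359706-128359955 and chr5:138171267-138171516, all on the minus strand.
Mcm3: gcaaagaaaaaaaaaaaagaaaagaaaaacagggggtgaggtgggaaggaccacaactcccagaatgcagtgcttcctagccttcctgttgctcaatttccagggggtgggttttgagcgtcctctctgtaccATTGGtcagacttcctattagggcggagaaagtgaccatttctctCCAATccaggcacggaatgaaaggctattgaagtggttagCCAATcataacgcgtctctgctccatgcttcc
Mcm6: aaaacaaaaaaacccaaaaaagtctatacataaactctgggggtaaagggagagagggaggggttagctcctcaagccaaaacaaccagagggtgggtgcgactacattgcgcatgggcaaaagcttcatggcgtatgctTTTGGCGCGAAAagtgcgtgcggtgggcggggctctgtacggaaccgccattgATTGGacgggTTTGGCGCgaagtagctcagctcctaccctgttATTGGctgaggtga
Mcm7: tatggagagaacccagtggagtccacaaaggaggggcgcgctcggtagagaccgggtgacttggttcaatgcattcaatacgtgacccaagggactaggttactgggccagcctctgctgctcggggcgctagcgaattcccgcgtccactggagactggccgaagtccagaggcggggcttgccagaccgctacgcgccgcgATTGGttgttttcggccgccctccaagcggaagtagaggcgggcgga
Mcm6 had 2 CCAAT matches and 3 matches to the E2F letters, of which 2 overlap each other on opposite strands, while Mcm3 had 3 CCAAT matches and no E2F match. The Mcm7 window shown had 1 CCAAT match, at 47 bases before the start. Another RefSeq start of Mcm7 has 2 CCAAT matches, 1 CHR match and 1 E2F match in its window. That window is not shown because it lies in annotated exons, as the window of Pcna does in part.

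Of the 3 enzymes that make nucleotides, 1 fell and 1 rose in TD against WT. Rrm2, the small subunit of ribonucleotide reductase, was at 20.3, 19.9, 19.1 and 18.7 CPM in WT, 16.1, 18, 15.6 and 12.8 CPM in TA and 15.3, 14.7, 13.7 and 14.1 CPM in TD. All 4 WT libraries were above all 8 libraries of the mutants, and TA and TD overlapped. Rrm2 fell by 0.43 ± 0.103 in TD against WT (adjusted p = 0.00509), and in TA against WT the difference was -0.32 ± 0.103, where the adjusted p of 0.0544 missed the threshold. Tk1, the cytosolic thymidine kinase, was at 4.36, 4.47, 4.61 and 5.48 CPM in WT, 5.09, 5.41, 5.90 and 5.17 CPM in TA and 7.83, 6.20, 5.64 and 8.09 CPM in TD. TD was above WT in every library, with TD1 and TD4 highest, and TA lay between and overlapped both. Tk1 rose by 0.55 ± 0.154 in TD against WT (adjusted p = 0.0132), a call that was lost without TD4 (0.47, adjusted p = 0.0559), and Afmid overlaps it on the other strand for 1.60% of its exon length. Tyms, thymidylate synthase, averaged 4.26 ± 0.616 CPM in WT, 5.17 ± 1.46 in TA and 5.27 ± 0.213 in TD, with each TD library above each WT library, and was not called. Pcna, the clamp, was at 51.9, 43.5, 44.0 and 43.7 CPM in WT, 37.6, 40.5, 42.1 and 43.1 CPM in TA and 43.5, 42.0, 35.4 and 38.8 CPM in TD. No TA or TD library reached the WT range, although TD1 and WT2 round to the same value, and the differences of -0.17 ± 0.0848 and -0.20 ± 0.0848 had adjusted p-values of 0.242 and 0.0924.

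Of the 4 genes of mitotic cyclins and their kinase, Ccna2 was called. Ccna2, which encodes cyclin A2 of late S phase and early mitosis, was at 4.15, 5.11, 3.96 and 3.23 CPM in WT, 5.09, 4.49, 7.46 and 4.67 CPM in TA and 9.14, 6.52, 7.5 and 11.1 CPM in TD. Every TD library was above every WT library, and TA overlapped WT at its low end and TD through TA3. The rise was the largest of the 34 tested genes in TD against WT, 1.05 ± 0.206 (adjusted p = 0.00144), and this call remained in each of the 22 alternatives tried. Of these, 1 only counted Ccna2 with the S-phase genes and could not change the call of any gene. Against TA the rise was 0.65 ± 0.204 (adjusted p = 0.0370), and that call was lost without TA1, TA2, TA4, TD1, TD3 or TD4 (adjusted p from 0.0537 to 0.142). Exosc9 overlaps Ccna2 on the other strand for 12.5% of its exon length and had a higher mean count, 349.6 against 109. The cyclin B genes were not called, with 4.43 ± 1.27, 3.83 ± 0.756 and 6.00 ± 1.44 CPM for Ccnb1 in WT, TA and TD (adjusted p = 0.157 in TD against WT by edgeR). Ccnb2 had 2.30 ± 0.873, 2.47 ± 0.830 and 3.96 ± 1.15 CPM (adjusted p = 0.0618), and the pseudogene Ccnb2-ps had a mean of 22.7 counts, so that reads of the pair may be split. Cdk1, the kinase partner of these cyclins, averaged 9.82 ± 0.982 CPM in WT, 8.24 ± 1.21 in TA and 9.59 ± 0.574 in TD.

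Of the 2 genes of mitotic chromosomes 1 was called. Top2a, the topoisomerase that untangles sister chromatids, was at 12.1, 20.8, 20.9 and 13.8 CPM in WT, 15.7, 17.6, 22.1 and 16.1 CPM in TA and 27.9, 23.6, 20.3 and 30.5 CPM in TD. WT2 and WT3 were at the level of TD3, so WT and TD overlapped. Top2a rose by 0.60 ± 0.176 in TD against WT (adjusted p = 0.0179), and the call was lost without WT1, WT4 or TD4 (adjusted p from 0.0605 to 0.0677). Mki67, the marker of proliferating cells Ki-67, was at 17.2, 26.8, 25.2 and 13.8 CPM in WT, 15.4, 14.9, 25.3 and 11.6 CPM in TA and 24.5, 22.3, 22.9 and 33.2 CPM in TD. WT2, WT3 and TA3 lay inside the TD range, and neither comparison with TD passed (adjusted p = 0.331 against WT and 0.0757 against TA). The promoter windows of both genes, the mitosis genes with the highest mean CPM, are shown in the same manner, at chr11:99024190-99024439 and chr7:135716380-135716629, both on the minus strand.
Top2a: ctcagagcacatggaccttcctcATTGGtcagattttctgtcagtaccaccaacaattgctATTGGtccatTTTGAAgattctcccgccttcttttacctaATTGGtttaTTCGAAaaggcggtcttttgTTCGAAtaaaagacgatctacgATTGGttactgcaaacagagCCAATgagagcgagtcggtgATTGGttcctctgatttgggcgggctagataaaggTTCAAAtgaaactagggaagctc
Mki67: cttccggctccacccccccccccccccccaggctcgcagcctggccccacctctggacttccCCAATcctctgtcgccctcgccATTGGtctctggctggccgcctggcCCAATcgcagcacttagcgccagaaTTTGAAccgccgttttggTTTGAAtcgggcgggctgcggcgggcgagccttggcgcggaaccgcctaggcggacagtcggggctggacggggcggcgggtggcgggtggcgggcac
Top2a had 6 CCAAT and 4 CHR matches in the window, the CHR match nearest to the start lying 23 bases before it, and Mki67 had 3 CCAAT and 2 CHR matches. Neither window had an E2F match.

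Cdc20 rose in TD against WT in each of the 22 alternatives, as Ccna2 did. Cdc20, the activator of the anaphase-promoting complex (APC/C) that starts chromosome separation, was at 3.94, 4.02, 4.01 and 2.41 CPM in WT, 5.38, 3.87, 6.85 and 4.22 CPM in TA and 7.49, 5.87, 5.85 and 6.86 CPM in TD. All TD libraries were above all WT libraries, and TA spread over both ranges. The rise against WT was 0.85 ± 0.206 (adjusted p = 0.00572), while TA differed from WT by 0.50 ± 0.209 with an adjusted p of 0.145. Elovl1, with a mean of 991 counts against 92.0 for Cdc20, overlaps it on the other strand for 2.84% of its exon length. Ube2c, the ubiquitin-conjugating enzyme of the same complex, was not called, with 4.69 ± 1.04 CPM in WT, 3.49 ± 0.837 in TA and 3.81 ± 0.827 in TD. Its exons overlap Tnnc2 on the other strand for 22.8% of their length. Tpx2, which activates Aurora A at the spindle, was at 7.11, 7.65, 7.58 and 4.88 CPM in WT, 7.37, 5.78, 11.1 and 7.5 CPM in TA and 11.3, 10.6, 8.25 and 11.9 CPM in TD. TD was above WT without overlap, and TA3 was inside the TD range. The rise was 0.62 ± 0.193 (adjusted p = 0.0229) and was lost without WT4, TD1 or TD4 (adjusted p from 0.0515 to 0.0753). Nusap1, another spindle protein, averaged 4.12 ± 1.20, 3.87 ± 1.08 and 5.05 ± 1.29 CPM in WT, TA and TD and was not called.

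Of the kinetochore genes, Cenpf passed narrowly. Cenpf was at 3.11, 4.12, 3.91 and 2.41 CPM in WT, 4.27, 3.14, 7.35 and 2.67 CPM in TA and 4.77, 6.58, 4.84 and 6.80 CPM in TD. Its TD libraries were above its WT libraries, and the highest value of all was TA3. The rise of 0.76 ± 0.275 had an adjusted p of 0.0487 and was lost without WT1, WT3, WT4, TA1, TD2, TD3 or TD4 (adjusted p from 0.0584 to 0.135). Cenpe, a kinetochore motor, missed the threshold narrowly, with means from 4.28 ± 1.41 CPM in WT to 6.84 ± 0.738 in TD (0.67 ± 0.248, adjusted p = 0.0514). Cenpa, the histone that marks centromeres, averaged 3.59 ± 0.667 CPM in WT, 4.33 ± 1.94 in TA and 4.63 ± 0.335 in TD, and Birc5, survivin of the chromosomal passenger complex, averaged 3.12 ± 1.11, 2.68 ± 0.996 and 3.65 ± 0.704 CPM. None of the 5 genes of mitotic kinases and checkpoint kinases was called in any comparison. Against WT their log2 fold changes in TD ran from 0.28 for Bub1 to 0.64 for Plk1, with Aurka at 0.34, Bub1b at 0.45 and Aurkb at 0.52, and their standard errors ran from 0.239 to 0.357. In TA they ran from -0.17 for Bub1b to 0.19 for Plk1. Levels of these 5 genes lay between 1.37 and 7.40 CPM over all libraries.

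**Figure D3:**
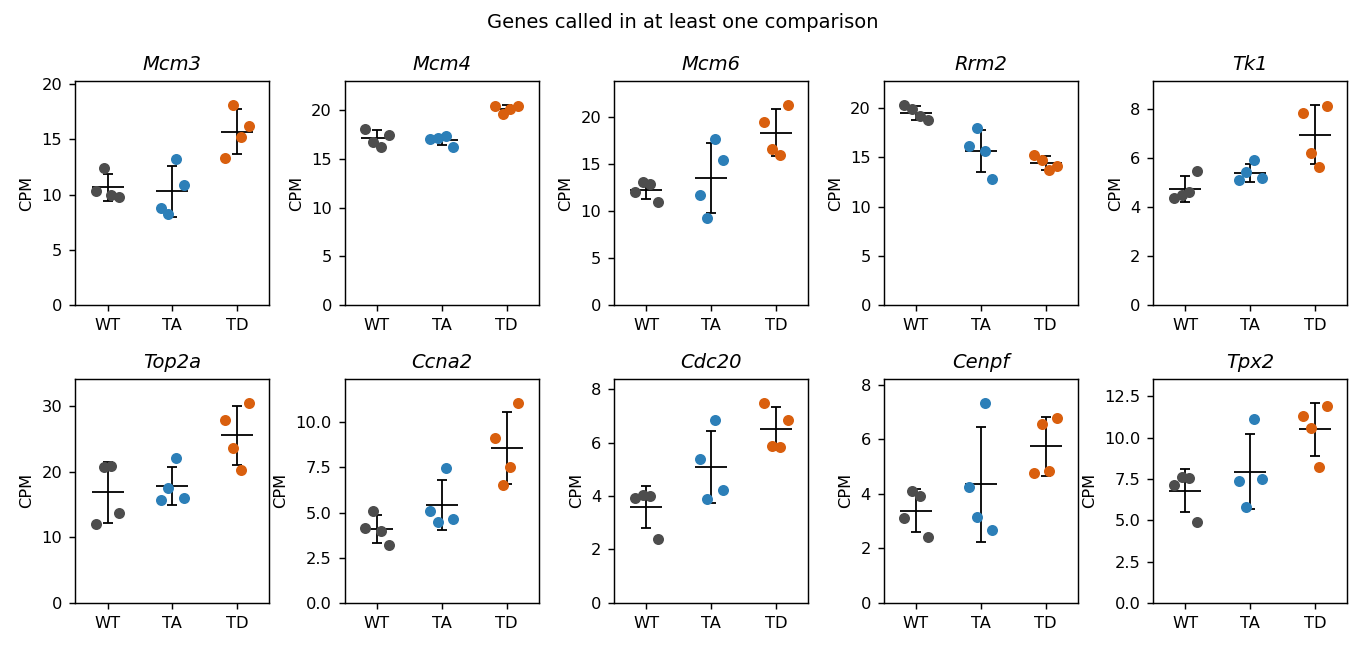
CPM of the 10 genes called in at least 1 comparison, with 1 point per library, the mean as a dash and the SD as a bar (n = 4), on axes that start at 0. TD lies above WT for 9 genes and below for Rrm2, and TA3 is the highest TA library for the same 9.

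The S-phase and mitosis genes differed in how far libraries of 1 genotype spread. A score for each library was taken by subtracting from each gene's log2 CPM its mean over the 12 libraries and averaging the differences over the genes of a list. It carries no test, since the genes share their libraries. The S-phase score was -0.06, 0.06, -0.18 and -0.10 in WT, -0.09, -0.13, 0.11 and -0.09 in TA and 0.18, 0.15, -0.01 and 0.16 in TD. The mitosis score was -0.30, 0.22, -0.01 and -0.56 in WT, -0.24, -0.48, 0.37 and -0.25 in TA and 0.43, 0.14, 0.20 and 0.50 in TD. TD was highest by the mean of both scores, but WT2 and TA3 were inside the TD range of both. The mean ± SD of the mitosis score was -0.16 ± 0.342 in WT, -0.15 ± 0.363 in TA and 0.32 ± 0.174 in TD (n = 4 each), and that of the S-phase score -0.07 ± 0.10, -0.05 ± 0.107 and 0.12 ± 0.0883. The mitosis score minus the S-phase score averaged -0.10 ± 0.311 in WT, -0.10 ± 0.257 in TA and 0.20 ± 0.149 in TD, with overlap among all genotypes.

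Most mitosis genes had their extremes in the same libraries. Within WT, 15 of the 19 genes were highest in WT2 and 14 were lowest in WT4, and within TA, 18 were highest in TA3 and 12 were lowest in TA2. In TD no single library held most extremes, with 8 genes highest in TD4 and 7 in TD1, and 8 lowest in TD3 and 7 in TD2. For the 15 S-phase genes the count was 6 highest in WT2 and 8 highest in TA3. The median SD of a mitosis gene among the WT libraries was 0.406 on the log2 scale, where counting alone gives 0.161, and in TA it was 0.390 beside 0.176. S-phase genes had 0.211 beside 0.10 in WT and 0.230 beside 0.108 in TA. The spread was lower in TD, with 0.275 beside 0.142 for the mitosis genes and 0.127 beside 0.0977 for the S-phase genes. Without WT2 the number of mitosis genes called higher in TD against WT went from 5 to 9, without WT1 it was 3, and without TD4 or WT4 it was 2. The number of S-phase genes called higher there went from 4 to 1 without TD4. Without TA3 the number in TD against TA went from 1 to 9 and that of S-phase genes from 2 to 4. The mitosis count in TD against TA was 0 without TA1, TA2, TA4, TD1 or TD4, 2 without WT3 or TD2, and 3 without WT1 or WT2. The S-phase count was 1 when any single other TA or TD library, or WT2 or WT4, was left out. The calls over all genes also moved as 1 library was left out. They ran from 3121 to 4705 in TD against WT and from 1422 to 3526 in TD against TA, in either direction. The changes in the counts of cell division genes therefore cannot be read as particular to these genes.

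In WT and TA the macrophage markers had their extremes in the same libraries as the mitosis score. The summed macrophage markers were 451, 862, 545 and 291 CPM in WT, 286, 149, 633 and 336 CPM in TA and 933, 769, 692 and 693 CPM in TD. WT2 and TA3 were thus the highest of their genotype, and WT4 and TA2 the lowest, in both measures, whereas in TD the macrophage markers were highest in TD1 and the mitosis score in TD4. The fibroblast and preadipocyte markers were highest in WT2, TA3 and TD4, and the adipocyte markers lowest in the same 3 libraries, at 16958, 16993 and 11270 CPM. This order was not that of every list, as the endothelial markers were highest in WT3, TA3 and TD4 (81.5, 113 and 167 CPM) and the muscle markers in WT1, TA2 and TD3 (9.60, 43.0 and 155 CPM). When the library with the most macrophage marker RNA was left out of each genotype (WT2, TA3 and TD1, a choice made after the data were seen), edgeR called 4 S-phase genes higher and 1 lower and 8 mitosis genes higher in TD against WT. It called 3 S-phase and 7 mitosis genes higher in TD against TA. Over all genes, the calls in either direction went from 4418 to 4522 in TD against WT. In TD against TA they went from 2524 to 3465. WT2 and TA3 also had the highest mitosis scores of their genotype. Leaving them out lowers the WT and TA means whatever the cause, so it cannot show the part of macrophages. The part of macrophages or fibroblasts in the levels of the cell division genes was not tested.

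**Figure D4:**
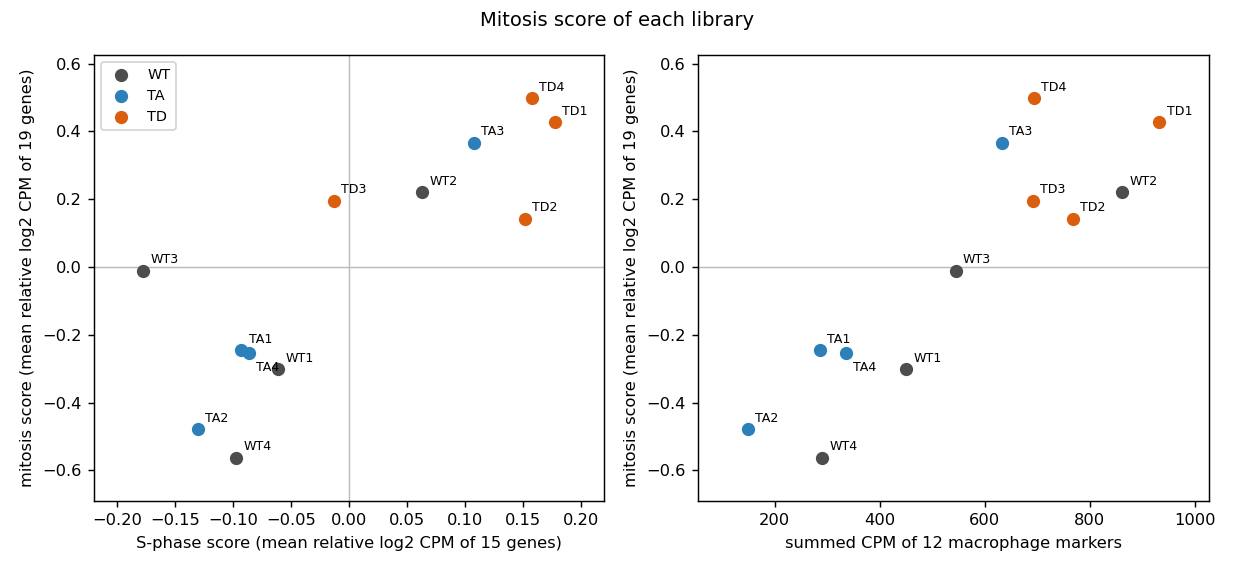
Mitosis score of each of the 12 libraries (19 genes, log2 CPM less each gene's 12-library mean, averaged) against the S-phase score of 15 genes (left) and the summed CPM of 12 macrophage markers (right), coloured by genotype. WT2 and TA3 lie among the TD libraries in the left panel, with mitosis scores of 0.22 and 0.37, and were the highest of their genotype in macrophage markers.

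The promoter letters differed between the lists in their share of windows. RefSeq promoters were found for 30 of the 35 genes, in 31 windows of 250 bases, and not for Ccna2, Tpx2, Aurkb, Mcm4 and Ccne2. The CHR letters were in 8 of 17 mitosis windows (47.1%) and 3 of 14 S-phase windows (21.4%), beside 17.15% of all 32851 windows. CCAAT was in 15 of 17 mitosis windows (88.2%), 9 of 14 S-phase windows (64.3%) and 33.85% of all windows. The E2F letters were in 4 of 14 S-phase windows (28.6%), 1 of 17 mitosis windows (5.88%) and 1.86% of all windows. Those 4 include the Mcm7 window that is not shown, all 250 bases of which lie in annotated exons. Windows in exons, such as those of E2f1 and Nusap1, were kept in all these shares. A match of letters is a description and not a binding site.

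The other lists of genes were taken by their function. Of 38 further replication factors, all tested, 5 rose in TD against WT (Lig1, Timeless, Gins2, Prim2 and Pole2) and 1 fell, with a median of 0.18. These are 13.2% and 2.63% of the list, beside 15.1% and 14.2% of all genes, so the share that rose was near the background. Gins2 overlaps Gse1 on the other strand for 67.3% of its exon length. The largest rise was that of Pole2, a subunit of the leading-strand polymerase, from 1.21 ± 0.411 CPM in WT to 2.92 ± 0.789 in TD (1.28 ± 0.285, adjusted p = 0.00340). The fall was that of Pold2, a subunit of the lagging-strand polymerase, with -0.34 ± 0.115 (adjusted p = 0.0355), lost without WT1, WT4, TD2, TD3 or TD4 (adjusted p from 0.0647 to 0.119). In TA against WT edgeR called no factor higher, where 6.72% of all genes were, and DESeq2 called 1. Gmnn alone was called lower by edgeR, 2.63% of the list beside 4.41% of all genes. Gmnn, geminin, which blocks a second loading of the helicase, went from 8.06 ± 0.759 to 5.04 ± 0.967 CPM (-0.68 ± 0.176, adjusted p = 0.0195), and that call was lost without WT3 or TA1 (adjusted p = 0.0504 and 0.0622). In TD against TA, Lig1 and Chaf1b rose, the larger rise being that of the histone chaperone subunit Chaf1b with 1.03 ± 0.240 (adjusted p = 0.00856). These 2 genes are 5.26% of the list, below the 7.33% of all genes called higher.

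Of 48 further mitosis genes 47 were tested, and 7 rose and 1 fell in TD against WT, with a median of 0.39. The share that rose, 14.9%, was near the 15.1% of all genes, and the share that fell was 2.13% beside 14.2%. Kif4, a chromosome-bound kinesin, rose most, from 1.32 ± 0.253 to 2.98 ± 0.870 CPM (1.17 ± 0.255, adjusted p = 0.00295), and Pdzd11 overlaps it on the other strand for 15.1% of its exon length. The others were the condensin genes Ncapd2, Ncapg and Ncaph, the spindle genes Ckap2 and Ckap2l, and Prc1, which bundles the microtubules of the midzone. Cks1b, a small subunit of CDK complexes, was at 27.3, 24.8, 22.0 and 27.9 CPM in WT, 29.9, 32.9, 30.6 and 33.3 CPM in TA and 20.8, 21.5, 20.5 and 18.5 CPM in TD. The 3 genotypes did not overlap, with TA highest and TD lowest. Cks1b changed by -0.33 ± 0.0905 in TD against WT (adjusted p = 0.0126), by 0.31 ± 0.0891 in TA against WT (adjusted p = 0.0322) and by -0.64 ± 0.0904 in TD against TA (adjusted p = 0.000228). The TA call was lost without WT2, WT3, TA2 or TA4 (adjusted p from 0.0666 to 0.106). In TD against TA, Kif20b rose most, by 1.13 ± 0.336 (adjusted p = 0.0299), and that call was lost without TA1, TA2, TA4, TD1, TD3 or TD4 (adjusted p from 0.0541 to 0.0929). The 3 genes that rose there are 6.38% of those tested, beside 7.33% of all genes.

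CDK inhibitors, the brakes of the cycle, include genes that fell in TD. Of 7 such genes 3 (42.9%) were called lower in TD against WT, where 14.2% of all genes were, and the same 3 in TD against TA, where 9.37% were. None was called in TA against WT by edgeR or DESeq2, where edgeR called 6.72% of all genes higher and 4.41% lower. At an unadjusted p under 0.05 edgeR had 1 higher and 2 lower there, where 2108 and 1696 of all 15117 genes were. Cdkn1a, p21, a target of p53, was at 312, 334, 338 and 284 CPM in WT, 329, 344, 281 and 298 CPM in TA and 240.0, 226, 243 and 218 CPM in TD. All TD libraries were below all others, by -0.45 ± 0.0817 against WT (adjusted p = 0.000815) and by -0.43 ± 0.0817 against TA (adjusted p = 0.00211). Cdkn2a, whose products p16 and ARF share exons and cannot be told apart in gene counts, was at 10.0, 12.4, 10.7 and 11.1 CPM in WT, 6.20, 10.9, 8.57 and 6.61 CPM in TA and 3.24, 5.71, 2.87 and 4.16 CPM in TD. TD was again lowest without overlap, by -1.46 ± 0.211 against WT (adjusted p = 0.000199) and by -1.01 ± 0.214 against TA (adjusted p = 0.00472). Cdkn2c, p18, was at 178, 153, 141 and 169 CPM in WT, 207, 219.8, 165 and 167 CPM in TA and 125, 121, 114 and 110.0 CPM in TD. Its TD libraries were below all others, by -0.45 ± 0.10 against WT (adjusted p = 0.00362) and by -0.69 ± 0.10 against TA (adjusted p = 0.000283). Cdkn1b (p27) averaged 66.4 ± 10.0, 71.5 ± 6.38 and 79.3 ± 6.62 CPM in WT, TA and TD (adjusted p = 0.0702 in TD against WT by edgeR) and Cdkn2b (p15) 34.6 ± 1.76, 29.6 ± 0.634 and 29.8 ± 3.13 CPM (adjusted p = 0.0580). Cdkn1c (p57) ran from 14.1 to 20.2 CPM and Cdkn2d (p19) from 11.4 to 17.2 CPM over all libraries, with no call. Adipocyte markers fell in the same libraries, 9 of 10 being called lower in TD against WT and 9 of 10 in TD against TA, and their part in the fall of the inhibitors was not tested.

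**Figure D5:**
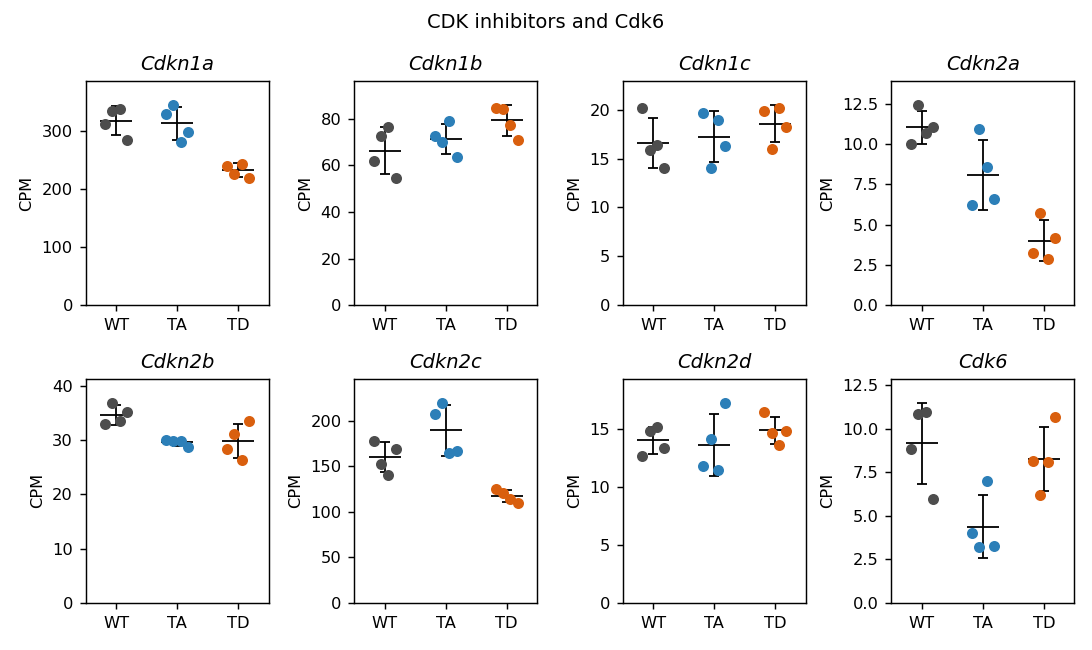
CPM of the 7 CDK inhibitor genes and of Cdk6, with 1 point per library, the mean as a dash and the SD as a bar (n = 4), on axes that start at 0. Cdkn1a, Cdkn2a and Cdkn2c are lowest in every TD library, and Cdk6 is low in TA, with TA3 at 7.01 CPM above the other 3.

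Among the G1 regulators, Cdk6 and Cdc25a changed in TA against WT. Of 7 genes of G1 cyclins and kinases none was called by edgeR or DESeq2 in TD against WT. EdgeR called 15.1% of all genes higher and 14.2% lower there. At an unadjusted p under 0.05 edgeR had 2 of them higher, where 3128 of all 15117 genes were. In TA against WT 1 gene was called higher and 1 lower (14.3% each), beside 6.72% and 4.41% of all genes. Cdk6, a partner of the D cyclins, was at 8.82, 10.9, 11 and 5.97 CPM in WT, 4.04, 3.20, 7.01 and 3.28 CPM in TA and 8.18, 6.20, 8.09 and 10.7 CPM in TD. TA3 reached the range of the other genotypes and the other TA libraries did not. Cdk6 fell by 1.06 ± 0.253 in TA against WT (adjusted p = 0.0120) and rose by 0.91 ± 0.255 in TD against TA (adjusted p = 0.0220), where the call was lost without TA1, TA2, TA4 or TD4 (adjusted p from 0.0573 to 0.0814). Cdc25a, the phosphatase that activates CDK2, rose from 9.25 ± 0.669 CPM in WT to 12.7 ± 1.76 in TA (0.45 ± 0.116, adjusted p = 0.0187), and not without WT3 (adjusted p = 0.0574), and averaged 11.5 ± 0.205 CPM in TD. Cdk4 averaged 79.4 ± 3.37, 91.5 ± 11 and 92.3 ± 4.56 CPM in WT, TA and TD, and Cdk2 averaged 29.9 ± 3.08, 25.6 ± 2.33 and 27.2 ± 1.88 CPM. The D cyclin genes were not called, with Ccnd1 from 11.8 to 27.7 CPM, Ccnd2 from 225 to 317 CPM and Ccnd3 from 105 to 132 CPM over all libraries. Ccnd1 and Cdk4 overlap a gene on the other strand for 23.4% and 19.7% of their exon length.

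Of 19 genes of the RB, E2F and DREAM complexes, which hold cell cycle promoters silent or open, 2 rose and 2 fell in TD against WT, a smaller share each way than the 15.1% and 14.2% of all genes. The largest rise was Rbl1 (p107) with 0.35 ± 0.123 (adjusted p = 0.0442), which was lost without WT1, WT2, WT4, TA1 or any TD library (adjusted p from 0.0513 to 0.147), and the largest fall was Rbbp4 with -0.31 ± 0.0779 (adjusted p = 0.00691). In TA against WT, E2f2, an activating E2F, fell from 6.73 ± 0.860 to 4.08 ± 0.855 CPM (-0.72 ± 0.167, adjusted p = 0.00972), and Lin9, a subunit of the MuvB core that DREAM shares with an activator of mitotic genes, rose from 6.14 ± 0.952 to 9.36 ± 1.22 CPM (0.61 ± 0.163, adjusted p = 0.0233). The call of Lin9 was lost without WT1, WT2, WT4, TA1 or TA2 (adjusted p from 0.0514 to 0.0776). In TD against TA the largest rise was E2f8 with 1.30 ± 0.384 (adjusted p = 0.0295), from 7 to 39 counts per library, lost without TA1, TA2, TA4, TD3 or TD4 (adjusted p from 0.0727 to 0.0982), and its exons overlap Gm2788 on the other strand. The largest fall was Lin9 with -0.67 ± 0.164 (adjusted p = 0.0113).

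Of the 14 subunits of the APC/C none was called higher in any comparison by edgeR or DESeq2. Anapc7 and Anapc13 fell in TD against WT, the latter most with -0.49 ± 0.118 (adjusted p = 0.00540), and Anapc13 fell in TD against TA with -0.47 ± 0.118 (adjusted p = 0.0132), a call lost without TD4 (adjusted p = 0.0511). Cep63 overlaps Anapc13 on the other strand for 10.1% of its exon length. The share of the list that fell was 14.3% in TD against WT, near the 14.2% of all genes. In TD against TA it was 7.14%, beside 9.37% of all genes. Of 15 p53 targets 14 were tested, and 5 fell (35.7%, beside 14.2% of all genes) and none rose (beside 15.1%) in TD against WT, with a median of -0.19. The largest fall was Phlda3, an inhibitor of AKT, from 284 ± 20.2 CPM to 196 ± 11.5 CPM (-0.54 ± 0.0950, adjusted p = 0.000675), and it fell in TD against TA as well (-0.45 ± 0.0950, adjusted p = 0.00496). In TA against WT 1 target, Sesn1, rose by 0.27 ± 0.0847 (adjusted p = 0.0476), and that call was lost on leaving out any library but WT2 and TA3 (adjusted p from 0.0548 to 0.126). Sesn1 is 7.14% of the targets tested, near the 6.72% of all genes called higher there. In TD against TA 14.3% of the targets tested fell, beside 9.37% of all genes.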

How the data were processed

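Total RNA of 12 cultures of SVF-differentiated adipocytes (4 WT, 4 TA, 4 TD) was sequenced, and the authors deposited raw read counts per gene, which were analysed here as deposited. Per the labels and the study's methods, reads were demultiplexed with bcl2fastq 2.17.1.14, trimmed with cutadapt 1.9.1, aligned to GRCm38 with HISAT2 2.0.1 and counted with HTSeq 0.6.1. The strand setting is not given in the sources used here. The counts of each library were equal in the 2 deposited forms (12 of 12 libraries).

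Genes were filtered with filterByExpr (minimum count 10, minimum total 15), scaled by TMM and fitted in 1 edgeR quasi-likelihood model of the 12 libraries (edgeR 4.0.16, limma 3.58.1, R 4.3.3), with Benjamini-Hochberg adjustment over all 15117 genes tested and a threshold of 0.05. CPM used the TMM library sizes, and log2 values a prior count of 2. Alternatives were DESeq2 1.42.0, its size factors, library totals alone, other filters, the 8 compared libraries alone, a replicate block, each library left out, and 2 sets of libraries left out that were chosen after the data were seen. The scripts were tested on simulated data. The members and all lists were chosen with earlier results of these data known. Every gene of the G1 and CDK inhibitor lists is named, and of the other lists the largest rise and fall among called genes of each comparison. Other called genes are named after their values were seen. Gene lengths and overlaps come from GENCODE M21, and promoter sequences from RefSeq (GRCm38.p6). The summed markers were not used in any fit. Intervals were not computed for single libraries, and the SD or SE of 4 libraries carries both counting error and differences between cultures.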

Additional observations from a re-analysis of the deposited data

Results flagged for a closer look

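In 7 of the 108 groups of 4 libraries examined, 1 library lay far from the other 3, by a gap to its neighbour that took up most of the range of the group (Dixon's ratio), and chance alone flags about 1 in 20 such groups. Cdc20 in WT4 was at 2.41 CPM where the other WT libraries were at 3.94 to 4.02 (gap 0.9609 of the range), and Tpx2 in the same library was at 4.88 CPM against 7.11 to 7.65 (gap 0.8369). Cdc6 in WT3 was at 0.347 CPM against 1.15 to 1.25 (gap 0.9336), and Pcna in WT1 was at 51.9 CPM against 43.5 to 44.0 (gap 0.9475). In TA, Ccne2 was at 2.83 CPM in TA4 against 5.38 to 5.79 (gap 0.897), and Cenpe was at 6.40 CPM in TA3 against 3.28 to 3.57 (gap 0.8745). The S-phase score of TD3, -0.01, lay below the other 3 TD libraries, which were at 0.15 to 0.18 (gap 0.8634). The call of Cdc20 in TD against WT remained without WT4, whereas that of Tpx2 did not.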

How the results depend on the processing

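No called cell division gene, and no gene given as the largest rise or fall of another list, changed direction under any alternative tried, while the medians in TA against WT, which are near 0, ran from -0.06 to 0.03 for the S-phase genes and from -0.20 to 0.16 for the mitosis genes as 1 library was left out. In TD against WT, leaving out 1 library gave 1 to 5 S-phase and 2 to 9 mitosis genes called higher (4 and 5 with all libraries), and 3121 to 4705 genes called of all tested (4418). In TD against TA it gave 1 to 4 S-phase genes (2), 0 to 9 mitosis genes (1) and 1422 to 3526 genes of all tested (2524). In TA against WT it gave 0 to 1 S-phase genes called lower, and 1160 to 1939 genes called of all tested (1683). Beyond that, DESeq2 and scaling by library totals alone each called 1 S-phase gene lower in TA against WT, where they called 2060 and 1727 genes of all tested. The number of mitosis genes called higher in TD against TA was 4 with library totals alone, 6 with no filter on low counts and 2 with at least 10 counts in every library. It was 2 with only the 8 libraries compared, 4 with DESeq2, and 0 when Ccna2 was counted with the S-phase genes. In the same order up to DESeq2, the genes called of all tested in TD against TA were 2784, 3097, 2542, 2339 and 2925, beside 2524 with the main settings. The number of S-phase genes there was 1 with only the 8 libraries compared. Without WT2, TA3 and TD1, 8 mitosis genes were called in TD against WT and 7 in TD against TA, beside 4522 and 3465 genes of all tested. Without TD3 and TD4, the calls in TD against WT were 1516 genes, 0 S-phase genes higher, 0 lower and 2 mitosis genes, and in TD against TA 634 genes and 0 S-phase and 0 mitosis genes. That set has fewer libraries, and any other cause was not tested.

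With the replicate number as a block (replicate block), 0 mitosis and 1 S-phase genes were called higher in TD against TA, and the genes called were 4246, 1560 and 2488 in TD against WT, TA against WT and TD against TA. Same-numbered libraries varied together little: over 12 pairs the correlations of their deviations ran from -0.24 to 0.20, and 2 were over 0.1. Of the 12 libraries 2 correlated best with their own number. Weak correlations cannot show whether same-numbered cultures were handled together.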
